A study of Mus musculus with 8 samples.

Results

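The matrix metalloproteinases (MMPs), the ADAMTS proteases and the tissue inhibitors of metalloproteinases (TIMPs) were followed in mouse lung just before and just after birth, with and without the secreted protease inhibitor WFDC2. The genes were every row of the deposited RNA-seq values whose symbol began with Mmp, Adamts or Timp followed by a number. This gave 46 of 25965 genes, of which 23 were Mmp, 19 were Adamts and 4 were Timp genes. Total lung RNA was sequenced in 4 groups of 2 libraries: Wfdc2+/+ and Wfdc2 GFP/GFP lungs at E18.5, shortly before birth, and the same genotypes at P1.5, shortly after it. The GFP allele carries an IRES-EGFP cassette in place of the start of Wfdc2, so Wfdc2 GFP/GFP mice lack WFDC2 in every tissue. The controls were Wfdc2+/+ littermates, and the labels name no treatment. The allele came from targeted ES cells, and the selection cassette had been removed with Cre in the germ line. The study also looked at MMP9, MMP12, ADAM10 and PRSS35 as proteins, which were not analysed here.

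MMPs are secreted or membrane-bound zinc proteases that cut collagens, elastin, proteoglycans and other matrix proteins, and TIMPs bind the active site of MMPs and of some ADAM and ADAMTS proteases and block them. ADAMTS proteases are secreted relatives that cut proteoglycans such as versican and aggrecan, trim procollagens or act near fibrillin microfibrils. In lung, matrix turnover by these enzymes accompanies the thinning of the septa around birth, and Mmp8, Mmp9 and Mmp12 are also carried by neutrophils and macrophages.

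On chromosome 9, 10 of the genes lie side by side, at mm10 chr9:7272514-7699585 as the deposited positions give them, in the order Mmp13, Mmp12, Mmp1b, Mmp3, Mmp1a, Mmp10, Mmp8, Mmp27, Mmp20 and Mmp7. Promoters of this cluster are shown because most share a sequence not found in the same window of the other family genes that could be searched. The 7 bases TGAGTCA or TGACTCA, which are each other's reverse complement and known as the AP-1 motif, were searched in the 250 bases before each start listed by RefSeq for GRCm38.p6, the build of mm10. The promoter table held 32 of the 46 genes, and Mmp2 and Mmp9 were among those not in it. The motif was found before 7 of the 10 cluster genes and before 0 of the 22 others, and before 5.16% of all 27025 genes with a listed promoter. Each line gives the motif in capitals with 20 bases on each side, 5′ to 3′ on the strand of the gene. The motif begins between 35 bases (Mmp13) and 93 bases (Mmp1b) before the start, and that of Mmp12 belongs to a second start that lies inside the gene as deposited.
Mmp13 (GRCm38.p6, plus strand, chr9:7272459-7272505): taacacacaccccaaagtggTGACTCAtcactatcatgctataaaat
Mmp12 (plus strand, chr9:7347310-7347356): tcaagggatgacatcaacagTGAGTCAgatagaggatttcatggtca
Mmp1b (minus strand, chr9:7388093-7388139): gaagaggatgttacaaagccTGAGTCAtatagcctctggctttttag
Mmp3 (plus strand, chr9:7445756-7445802): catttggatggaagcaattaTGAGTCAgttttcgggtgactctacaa
Mmp1a (plus strand, chr9:7464048-7464094): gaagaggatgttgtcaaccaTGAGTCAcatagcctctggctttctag
Mmp10 (plus strand, chr9:7502259-7502305): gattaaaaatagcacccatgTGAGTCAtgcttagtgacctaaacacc
Mmp7 (plus strand, chr9:7692007-7692053): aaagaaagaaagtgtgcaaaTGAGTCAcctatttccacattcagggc
Despite the shared motif, the reads of these 7 genes ran from none in any library (Mmp1a, Mmp1b) to 119 in one library (Mmp12). A match of letters is a description and no evidence of binding.

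The deposited values were log2 RPKM, reads per kilobase of gene span (introns included) scaled to library size. Reads per gene were recovered from them, and levels are given below as reads or as RPM, the reads of a gene in each 1000000 reads of its library. Totals ran from 19457647 to 37209332 reads a library, and the limit of detection used here, 3 reads, equals 0.0806 to 0.154 RPM. Wfdc2 had 8038 to 32845 reads in the Wfdc2+/+ libraries and 0 to 12 in the Wfdc2 GFP/GFP libraries. Type II cell, type I cell and club cell markers had reads in every library. The labels give no sex, and in every group replicate 1 held at least 4121 Xist reads and at most 3 of the Y-linked Ddx3y, while replicate 2 held at most 13 and at least 972. Each comparison thus has 1 library of either kind in each group.

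The libraries of a group did not always resemble each other in these genes. Of the 27 genes tested, 19 differed more than 2-fold between the P1.5 Wfdc2+/+ libraries, where 38.9% of all genes tested did. The corresponding counts were 7 for E18.5 Wfdc2 GFP/GFP (24.2% of all genes), 1 for P1.5 Wfdc2 GFP/GFP (12.9%) and 0 for E18.5 Wfdc2+/+ (3.86%). In P1.5 Wfdc2+/+, replicate 1 stood lower than replicate 2 in most of them, with 280 against 4642 reads of Mmp14, and with the reverse for Adamts13, Adamts15, Mmp8, Timp4 and Mmp19. The summed level of 5 fibroblast markers differed along with it, at 554 RPM in replicate 1 and 3361 RPM in replicate 2, against 823 and 1190 RPM in P1.5 Wfdc2 GFP/GFP and 2067 to 3319 RPM at E18.5. Other cell types' markers differed between these libraries too, with smooth muscle sums of 246 and 855 RPM, type II cell sums of 54852 and 26428 RPM and club cell sums of 17114 and 8364 RPM. The part of cell makeup in these values was not tested. Over the 27 genes, P1.5 Wfdc2+/+ replicate 1 lay at a median absolute log2 distance of 0.84 from the P1.5 Wfdc2 GFP/GFP mean and 1.25 from the E18.5 Wfdc2+/+ mean. Replicate 2 lay at 1.20 and 0.62. In E18.5 Wfdc2 GFP/GFP, replicate 1 was higher than replicate 2 in the 1444 genes that span more than 100 kb (median log2 difference 0.62) and lower in the 5614 genes that span less than 10 kb (median −0.35). In P1.5 Wfdc2+/+, replicate 1 was lower than replicate 2 in both sets, with medians of −0.92 and −0.16. The summed level of 5 cartilage markers was 29.1 RPM in E18.5 Wfdc2 GFP/GFP replicate 1, against 4.97 to 7.35 RPM in the other E18.5 libraries. It was 20.8 RPM in P1.5 Wfdc2+/+ replicate 1 and 6.12 RPM in replicate 2.

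**Figure D1:**
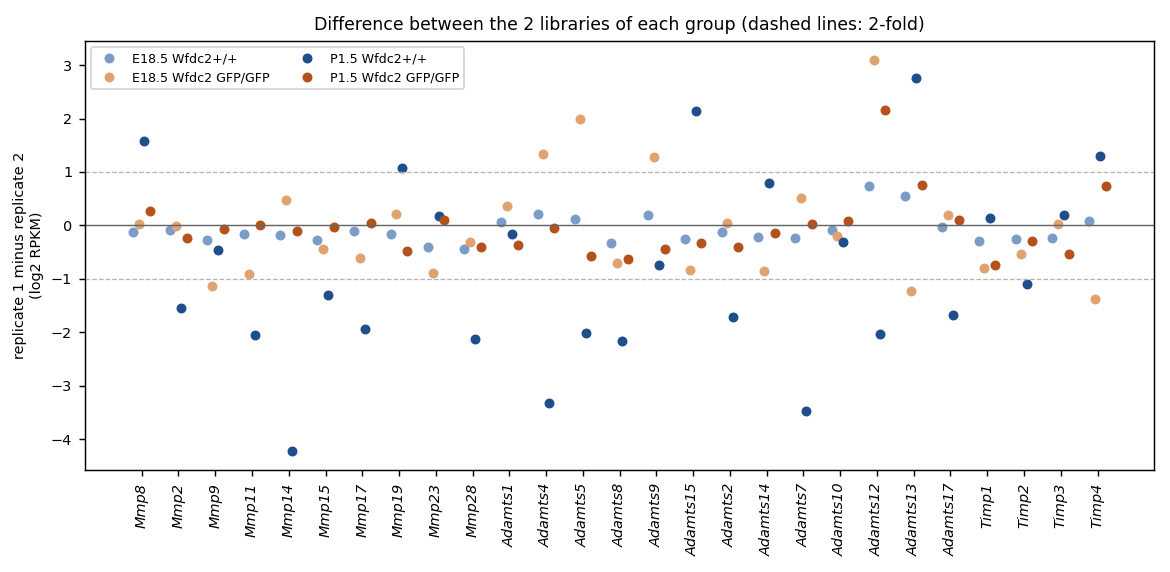
Difference between replicate 1 and replicate 2 (log2 RPKM, vertical axis) of each group for the 27 genes tested (horizontal axis), 1 point per group and gene, with dashed lines at 2-fold. The dark blue points of P1.5 Wfdc2+/+ lie outside the dashed lines for 19 genes and lie farthest out at Mmp14, while all points of E18.5 Wfdc2+/+ lie inside.

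Transcript abundance within the family spanned a wide range, with Timp3, Mmp2 and Timp2 as the most abundant members per kilobase of exon. Levels between genes were compared as RPM per kilobase of exon (GENCODE vM21 exons), a different scale from the deposited RPKM. The order depends on the scale: on the deposited RPKM, Adamts1 (13.4), Mmp14 (13.3) and Timp3 (12.3) had the highest means. Timp3, a TIMP that binds to the matrix, had the highest mean over the 8 libraries at 74.4 RPM per kb, with libraries from 47.6 to 107. Mmp2, the gelatinase that cuts denatured collagen and type IV collagen, followed with 62.4 (31.7 to 92.2), and Timp2, which takes part in the activation of pro-MMP2 at the cell surface, with 52.2 (28.6 to 79.1). The ranges of these 3 genes overlap. They were followed by Timp1 (24.9), Adamts10 (24.6), Adamts1 (23.5), Mmp14 (21.5), Mmp11 (20.1), Mmp15 (11.7) and Adamts17 (11.0). In all, 10 genes had a mean over 10 RPM per exon kb, 14 had between 1 and 10, and 22 had less than 1. The mean of Timp1 was set by P1.5 Wfdc2 GFP/GFP, with group means of 9.40 in E18.5 Wfdc2+/+, 7.11 in E18.5 Wfdc2 GFP/GFP, 16.8 in P1.5 Wfdc2+/+ and 66.3 in P1.5 Wfdc2 GFP/GFP. Timp4 was among the low members, at 0.49.

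Of the 46 genes, 27 (10 Mmp, 13 Adamts, 4 Timp) reached a mean of 0.05 RPKM and were tested together with all 15627 genes that did, using limma's moderated test with Benjamini-Hochberg adjustment over all of them. The 19 others are described apart. Loss of Wfdc2 was compared first. At P1.5, 0 of the 27 genes passed an adjusted p of 0.05, against 0.0128% (2 genes) of all genes tested. At an unadjusted p under 0.05 there were 4, Timp1 higher and Adamts1, Adamts10 and Mmp17 lower in Wfdc2 GFP/GFP, against 10.9% of all genes. Both Wfdc2 GFP/GFP libraries stood above both Wfdc2+/+ libraries in 3 genes (Timp1, Mmp9, Mmp23; 12.6% of all genes) and under them in 5 (Adamts1, Adamts9, Adamts10, Adamts14, Mmp17; 26.9%). The median log2 difference was −0.17 over the 27 genes and −0.20 over all genes. With every library centred to the same median, these became 0.03 and 0.00, and the unadjusted calls over all genes turned from 564 higher of 1710 to 1073 higher of 2069. The same centring turned the unadjusted calls at E18.5 from 590 higher of 683 to 466 higher of 676, those between stages in Wfdc2 GFP/GFP from 1502 of 5560 to 3498 of 5609 and those of the interaction described below from 340 of 1599 to 948 of 1885. Directions are given on the deposited scale. With voom, a limma method that weights the recovered reads, 0 of the 27 genes passed between genotypes at either stage. The same held between stages in Wfdc2+/+ and in the interaction, and in each of these comparisons 0 of all 15627 genes passed. Between stages in Wfdc2 GFP/GFP 2 genes passed with voom, Mmp9 and Timp1, against 0.825% of all genes (129 genes).

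The outcome at P1.5 depended on which Wfdc2+/+ library was kept. Without replicate 1, 4 genes were higher and 11 lower at an unadjusted p under 0.05, and of all 15627 genes 3913 passed, 624 of them higher. Without replicate 2, 7 were higher and 2 lower, and of all genes 2701 passed, 1781 of them higher. The family's split thus moved with that of all genes. The median log2 difference over the 27 genes was −0.77 without replicate 1 and 0.16 without replicate 2, against −0.44 and 0.10 over all genes. Each of these fits leaves 1 Wfdc2+/+ library at P1.5, so the unadjusted counts are given for their direction only. When P1.5 Wfdc2+/+ replicate 1 and E18.5 Wfdc2 GFP/GFP replicate 1 were both left out, 14 genes passed the adjusted threshold, 4 higher (Adamts13, Adamts15, Mmp19, Timp1) and 10 lower (Adamts1, Adamts4, Adamts5, Adamts7, Adamts10, Adamts17, Mmp2, Mmp11, Mmp14, Mmp17), together with 2667 genes in all (17.1%). This setting was chosen after the data were seen, takes the spread from the remaining pairs and assumes that the lone libraries vary like them.

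At E18.5, 0 of the 27 genes passed an adjusted p of 0.05 (0.0192% of all genes, 3 genes), and 2 passed without adjustment, Adamts10 higher and Mmp9 lower in Wfdc2 GFP/GFP, against 4.37% of all genes. The groups did not overlap in 6 genes that were higher (Adamts7, Adamts10, Adamts14, Mmp2, Mmp17, Mmp19; 26.5% of all genes; Mmp2 turned from 0.20 to −0.0085 in log2 under median centring) and in 5 that were lower (Adamts2, Mmp8, Mmp9, Timp2, Timp3; 9.46%). All 4 Timp genes had a lower mean in Wfdc2 GFP/GFP, with log2 differences from −0.51 to −0.34, but without E18.5 Wfdc2 GFP/GFP replicate 1 the difference was 0.27 for Timp4 and −0.05 for Timp1. The median log2 difference was −0.05 over the 27 genes and 0.09 over all genes.

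**Figure D2:**
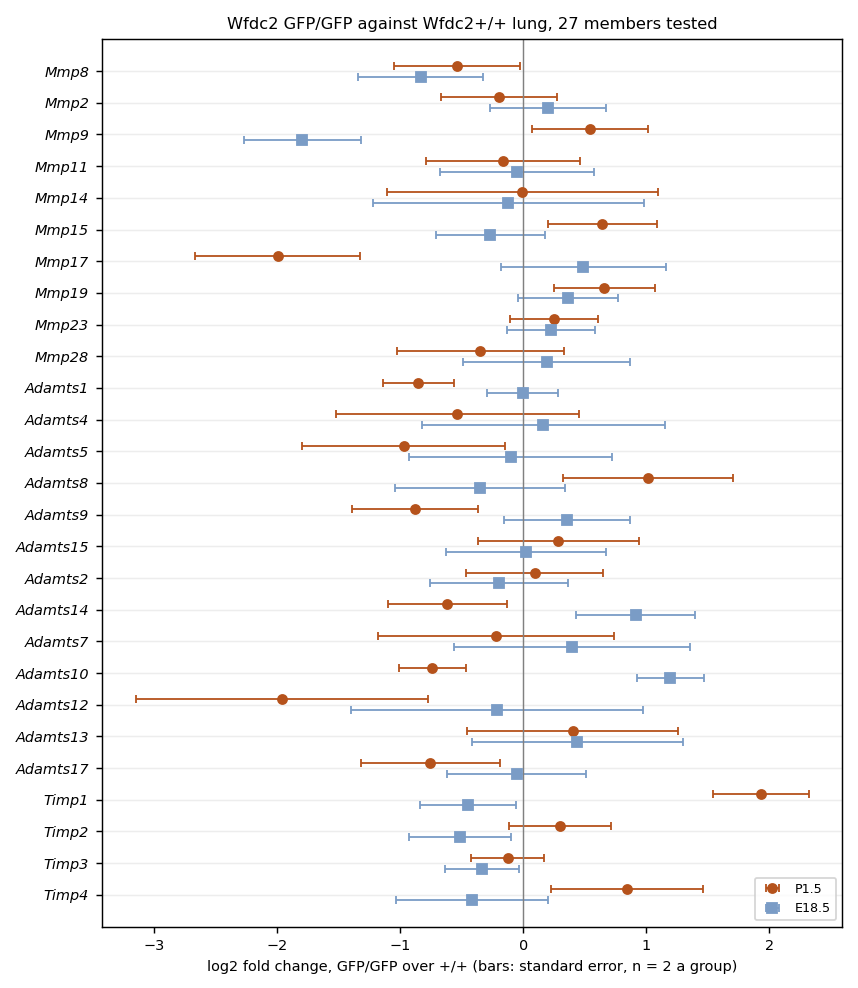
Log2 fold change of Wfdc2 GFP/GFP over Wfdc2+/+ (horizontal axis) with its standard error at P1.5 (circles) and E18.5 (squares) for the 27 genes tested, 2 libraries a group. Timp1 is farthest to the right at P1.5 (1.93), Mmp17 (−2.00) and Adamts12 (−1.97, with a standard error of 1.19) are farthest to the left, and at E18.5 Adamts10 (1.20) and Mmp9 (−1.80) stand apart from 0.

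The change from E18.5 to P1.5 was compared within each genotype. In Wfdc2+/+ lung, 0 of the 27 genes passed an adjusted p of 0.05 (0.0576% of all genes, 9 genes), and 5 passed without adjustment, against 11.8% of all genes: Adamts10, Mmp8, Mmp9 and Mmp23 higher at P1.5 and Adamts1 lower. The stages did not overlap in 8 genes that were higher at P1.5 (27.4% of all genes) and 5 that were lower (28.2%). In Wfdc2 GFP/GFP lung, 3 genes passed, against 4.55% of all genes: Mmp9 and Timp1 rose and Adamts1 fell. With 1 library left out, their log2 differences ran from 3.57 to 4.70 (Mmp9), 2.83 to 3.62 (Timp1) and −1.73 to −1.36 (Adamts1). With all 8 libraries, 11 genes had an unadjusted p under 0.05 by limma (35.6% of all genes), 5 higher and 6 lower. Stages did not overlap in 11 genes that were higher (18.7%) and 13 that were lower (48.5%), 24 of the 27. The median log2 difference over the 27 genes was 0.11 in Wfdc2+/+, where it was −0.15 over all genes. In Wfdc2 GFP/GFP it was −0.24, where it was −0.46 over all genes. Median centring moved the latter to 0.21, and with it 4 genes passed, Mmp9, Mmp15, Timp1 and Timp2, all higher at P1.5, while Adamts1 did not (8.18% of all genes passed). The calls in Wfdc2 GFP/GFP also rested on each of 3 libraries: without E18.5 replicate 1, P1.5 replicate 1 or P1.5 replicate 2, 0 of the 27 genes passed, with 0, 0 and 1 of all genes. Without E18.5 replicate 2 there were 7, against 15.7% of all genes. In Wfdc2+/+, leaving out P1.5 replicate 2 gave 8 genes that passed (Adamts13, Adamts15 and Mmp8 higher, and Adamts4, Adamts7, Adamts17, Mmp14 and Mmp28 lower), against 13.9% of all genes, and leaving out P1.5 replicate 1 gave 0.

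Whether the genotype difference itself differed between stages was tested with an interaction term. It passed the adjusted threshold in 0 of the 27 genes and in 0% of all genes. Without adjustment 4 genes passed, against 10.2% of all genes: Timp1 and Mmp9 with a positive term, Adamts10 and Mmp17 with a negative one. The stage comparisons and the genotype comparisons share libraries, so that their values are given side by side without an overlap between them.

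**Figure D3:**
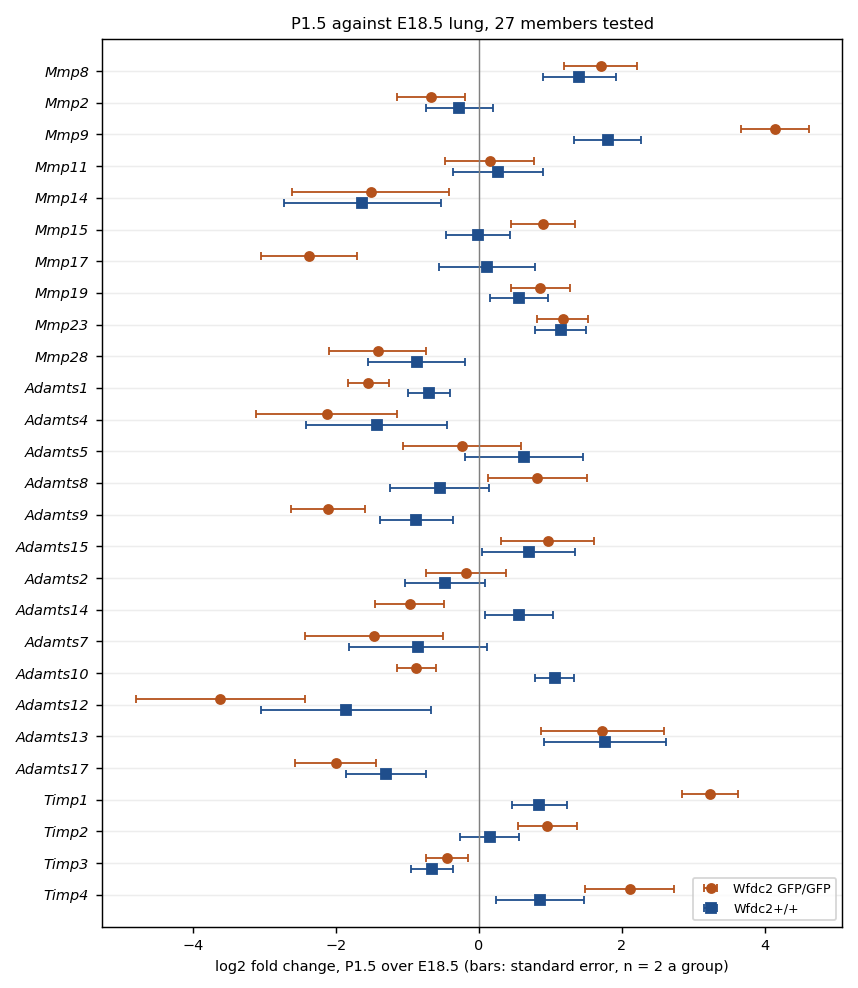
Log2 fold change of P1.5 over E18.5 (horizontal axis) with its standard error in Wfdc2 GFP/GFP (circles) and Wfdc2+/+ (squares) for the 27 genes tested, 2 libraries a group. In Wfdc2 GFP/GFP, Mmp9 (4.14) and Timp1 (3.23) lie farthest to the right and Adamts12 (−3.62) farthest to the left.

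Among the inhibitors, Timp1 passed in the stage comparison of Wfdc2 GFP/GFP. Timp1, an inducible TIMP that also binds pro-MMP9, lies on the X chromosome (mm10 chrX:20870166-20874735), inside Syn1, which is on the other strand and had 5 to 23 reads. It had 259 and 286 reads in E18.5 Wfdc2+/+ (7.52 and 9.18 RPM), 172 and 234 in E18.5 Wfdc2 GFP/GFP (4.62 RPM in replicate 1), 341 and 276 in P1.5 Wfdc2+/+ (15.7 and 14.2 RPM), and 1021 and 2154 in P1.5 Wfdc2 GFP/GFP (44.1 and 73.6 RPM). Both P1.5 Wfdc2 GFP/GFP libraries were above all 6 others, and the E18.5 genotypes overlapped. In Wfdc2 GFP/GFP, Timp1 rose 9.37-fold from E18.5 to P1.5 (log2 fold change 3.23 ± 0.39 (SE), limma adjusted p = 0.0205). Without E18.5 Wfdc2 GFP/GFP replicate 1 it was 2.83 in log2 (limma adjusted p = 0.130). In Wfdc2+/+ the log2 difference between stages was 0.85 ± 0.39 (adjusted p = 0.430 by limma). Between genotypes at P1.5, the Timp1 level of Wfdc2 GFP/GFP was 3.82 times that of Wfdc2+/+ (log2 difference 1.93 ± 0.39, unadjusted p = 0.00118, limma adjusted p = 0.219), the lowest unadjusted p of the 27 genes in that comparison. Its log2 difference was at least 1.56 over all alternatives and libraries left out, with limma adjusted p from 0.0316 to 0.556, the lowest when both libraries that stand apart were left out. The interaction was 2.38 ± 0.55 (limma adjusted p = 0.222).

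The other TIMPs passed in no comparison of the test over all 8 libraries. Timp2 (chr11:118301069-118355740) had 174 and 208 RPM in E18.5 Wfdc2+/+, 111 and 160 in E18.5 Wfdc2 GFP/GFP, 144 and 308 in P1.5 Wfdc2+/+, and 234 and 286 in P1.5 Wfdc2 GFP/GFP. The E18.5 Wfdc2 GFP/GFP libraries were the lower pair at E18.5, while at P1.5 both fell within the span of the Wfdc2+/+ pair. Timp3 (chr10:86300372-86349506) had 740 and 871 RPM in E18.5 Wfdc2+/+, 643 and 629 in E18.5 Wfdc2 GFP/GFP, 542 and 475 in P1.5 Wfdc2+/+, and 387 and 559 in P1.5 Wfdc2 GFP/GFP. Every P1.5 library was under every E18.5 library, with log2 differences of −0.66 ± 0.30 in Wfdc2+/+ and −0.45 ± 0.30 in Wfdc2 GFP/GFP (limma adjusted p = 0.425 and 0.297). Timp3 lies within Syn3, which is on the other strand and had 42 to 210 reads where Timp3 had 8970 to 27144. Timp4, the TIMP best known from heart, was scarce, with 57 and 49 reads in E18.5 Wfdc2+/+, 28 and 57 in E18.5 Wfdc2 GFP/GFP, 99 and 36 in P1.5 Wfdc2+/+, and 156 and 118 in P1.5 Wfdc2 GFP/GFP. Both P1.5 Wfdc2 GFP/GFP libraries had more reads than any other, but in RPM P1.5 Wfdc2+/+ replicate 1 (4.56 RPM) lay between them (6.73 and 4.03 RPM). Between stages in Wfdc2 GFP/GFP Timp4 had a log2 difference of 2.11 ± 0.62 (limma adjusted p = 0.0704). It was 2.79 without E18.5 Wfdc2 GFP/GFP replicate 2, when it passed (limma adjusted p = 0.0443), and 1.42 without replicate 1. Timp4 lies within Syn2, which had 29 to 151 reads.

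**Figure D4:**
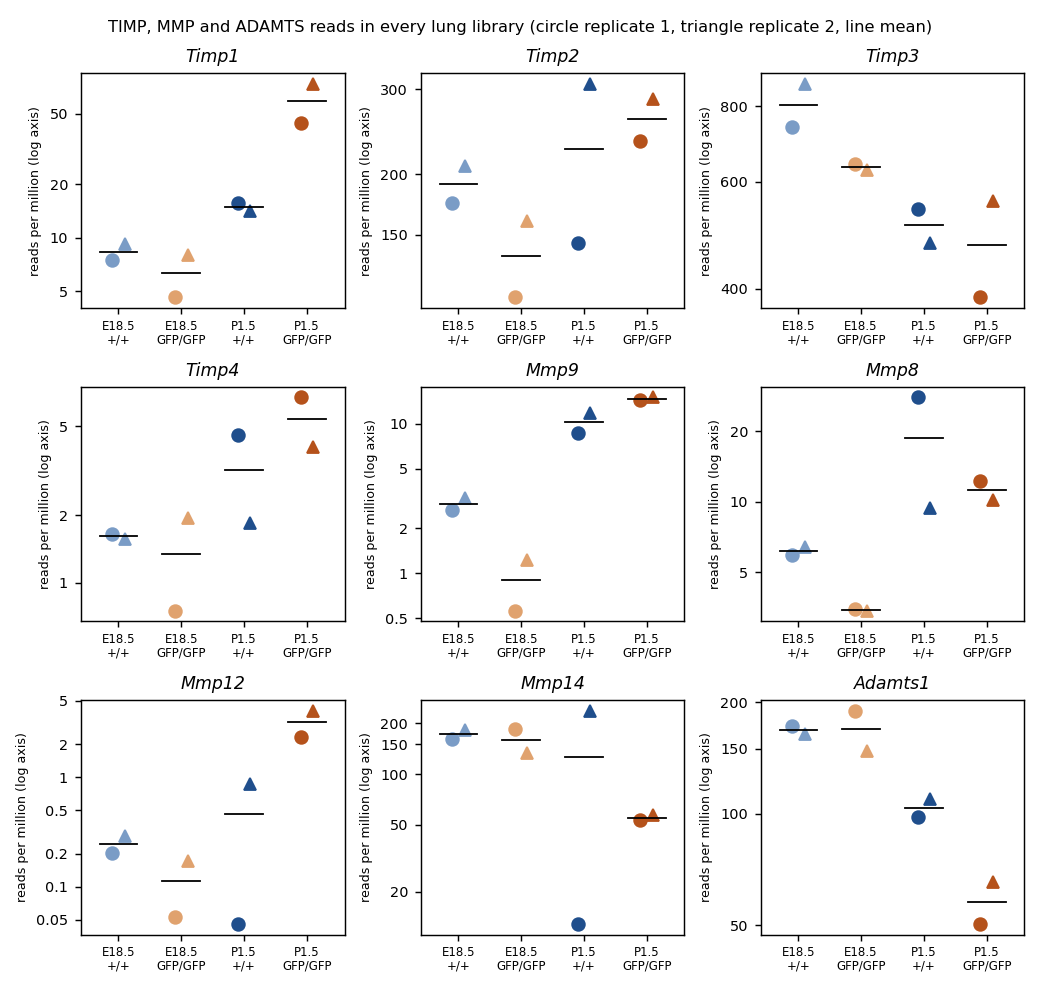
Level of 9 genes in each of the 8 libraries (RPM, log axis), by group, with circles for replicate 1, triangles for replicate 2 and a line at the group mean. Timp1, Mmp9 and Mmp12 are highest in both P1.5 Wfdc2 GFP/GFP libraries, and the P1.5 Wfdc2+/+ circles stand far from the triangles in Mmp14 (12.9 and 239 RPM) and Mmp12 (0.0461 and 0.874 RPM).

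Of the gelatinases, Mmp9 rose around birth in Wfdc2 GFP/GFP and Mmp2 passed in no comparison of the test over all 8 libraries. Mmp9 (chr2:164940780-164955850), the gelatinase stored in neutrophil granules and made by macrophages, had 91 and 99 reads in E18.5 Wfdc2+/+ (2.64 and 3.18 RPM), 21 and 36 in E18.5 Wfdc2 GFP/GFP (0.564 and 1.23 RPM), 187 and 229 in P1.5 Wfdc2+/+ (8.61 and 11.8 RPM), and 332 and 439 in P1.5 Wfdc2 GFP/GFP. The groups did not overlap: E18.5 Wfdc2 GFP/GFP was lowest, followed by E18.5 Wfdc2+/+, P1.5 Wfdc2+/+ and P1.5 Wfdc2 GFP/GFP in reads and in RPM. In Wfdc2 GFP/GFP, Mmp9 rose 17.6-fold from E18.5 to P1.5 (log2 fold change 4.14 ± 0.47, limma adjusted p = 0.0189). In Wfdc2+/+ the P1.5 level was 3.47 times the E18.5 level (1.80 ± 0.47, limma adjusted p = 0.232). The genotype difference was −1.80 ± 0.47 at E18.5 (limma adjusted p = 0.582) and 0.54 ± 0.47 at P1.5 (limma adjusted p = 0.729), and the interaction 2.34 ± 0.67 (limma adjusted p = 0.300). Without E18.5 Wfdc2 GFP/GFP replicate 1 the difference between stages in Wfdc2 GFP/GFP was 3.57 (limma adjusted p = 0.130), and over all alternatives it ran from 0.90, with 1 RPKM added to each value, to 4.81.

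Mmp2 (chr8:92827328-92853417) had 213 and 227 RPM in E18.5 Wfdc2+/+, 252 and 254 in E18.5 Wfdc2 GFP/GFP, 107 and 311 in P1.5 Wfdc2+/+, and 146 and 172 in P1.5 Wfdc2 GFP/GFP. The Wfdc2 GFP/GFP pair was lower at P1.5 than at E18.5, whereas the P1.5 Wfdc2+/+ libraries were the lowest and the highest of the 8. The log2 difference between stages was −0.67 ± 0.47 in Wfdc2 GFP/GFP and −0.27 ± 0.47 in Wfdc2+/+, with limma adjusted p of 0.322 and 0.760.

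Mmp8, the collagenase of neutrophils (chr9:7558429-7568486), had 203 and 199 reads in E18.5 Wfdc2+/+, 129 and 100 in E18.5 Wfdc2 GFP/GFP, 609 and 183 in P1.5 Wfdc2+/+, and 285 and 297 in P1.5 Wfdc2 GFP/GFP. In RPM every P1.5 library (9.41 to 28.0) was above every E18.5 library (3.42 to 6.38). The log2 difference between stages was 1.40 ± 0.51 in Wfdc2+/+ and 1.70 ± 0.51 in Wfdc2 GFP/GFP (limma adjusted p = 0.379 and 0.0726). Neutrophil markers were higher after birth too. The sum over 8 of them was 50.7 to 81.6 RPM at E18.5 and 624 to 1757 RPM at P1.5. The mean of each of the 8 was higher at P1.5 in both genotypes. Their median log2 difference was 3.49 in Wfdc2+/+ and 3.46 in Wfdc2 GFP/GFP, against −0.15 and −0.46 over all genes. After adjustment 1 passed in Wfdc2+/+ and 5 in Wfdc2 GFP/GFP, against 0.0576% and 4.55% of all genes. At an unadjusted p under 0.05 by limma there were 7 and 5, against 11.8% and 35.6%. P1.5 Wfdc2+/+ replicate 1, which had the most Mmp8 reads, also had the highest neutrophil sum (1757 RPM, 624 in replicate 2). Among the markers, Ly6g and Elane had no reads in at least 1 library at each stage. In bulk RNA, more cells of a type and more RNA per cell cannot be told apart, and the part of neutrophils in the values of Mmp8 and Mmp9 was not tested.

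Macrophage elastase, Mmp12 (chr9:7344381-7369499), was nearly absent before birth. It was not in the main test because its mean over the 8 libraries, 0.0400 RPKM, was under 0.05 RPKM. It had 7 and 9 reads in E18.5 Wfdc2+/+, 2 and 5 in E18.5 Wfdc2 GFP/GFP, 1 and 17 in P1.5 Wfdc2+/+, and 54 and 119 in P1.5 Wfdc2 GFP/GFP. Both P1.5 Wfdc2 GFP/GFP libraries (2.33 and 4.07 RPM) were above all others, of which P1.5 Wfdc2+/+ replicate 2 was highest with 0.874 RPM. In a fit of all 25965 genes without a filter, the log2 difference of Mmp12 between stages in Wfdc2 GFP/GFP was 5.01 ± 1.33 (limma adjusted p = 0.0957), and the genotype difference at P1.5 was 3.94 ± 1.33 (unadjusted p = 0.0232 by limma). Neither passed after adjustment. The sum over 6 macrophage markers (2 others, Adgre1 and Chil3, were not in the table) was 172 to 731 RPM at E18.5, 662 and 1185 RPM in P1.5 Wfdc2+/+ and 1250 and 1315 RPM in P1.5 Wfdc2 GFP/GFP. It was lowest in E18.5 Wfdc2 GFP/GFP replicate 1, and the macrophage receptor gene Marco rose in Wfdc2 GFP/GFP between stages (3.67 ± 0.58, limma adjusted p = 0.0331; 2.89 and 0.165 without E18.5 replicate 1). The part of macrophage number in the Mmp12 reads was not tested.

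Beside Mmp12 and Mmp8 the cluster on chromosome 9 was nearly silent. Mmp13, a collagenase of bone and cartilage, had 7 and 6 reads in E18.5 Wfdc2+/+, 2 and 0 in E18.5 Wfdc2 GFP/GFP, 1 and 8 in P1.5 Wfdc2+/+, and 8 and 17 in P1.5 Wfdc2 GFP/GFP. Against a limit of 3 reads a library in E18.5 Wfdc2 GFP/GFP, the mean RPM of P1.5 Wfdc2 GFP/GFP was 5.06-fold higher. That value takes no account of the counting error of 8 and 17 reads and is not a minimum. Mmp3, stromelysin 1, had 1 to 5 reads in 7 libraries and 13 in P1.5 Wfdc2 GFP/GFP replicate 2. At such counts no difference is read from these genes.

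Among the 46 genes, 7 had fewer than 10 reads in every library, all of them Mmp genes. There was no read of Mmp1a and Mmp1b (interstitial collagenases), Mmp20 (enamelysin, of teeth) and Mmp21, so that each allows less than 0.154 RPM in the shallowest library. Mmp7, matrilysin, had 1 read in 1 library. Mmp10, stromelysin 2, had 2 reads in each of 2 libraries, and Mmp27 had 0 to 7 reads. Of these 7 genes, 6 lie in the cluster on chromosome 9, and Mmp21 does not. No comparison is given for them. Mmp1b overlaps the end of Mmp12 on the other strand without a read on it.

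**Figure D5:**
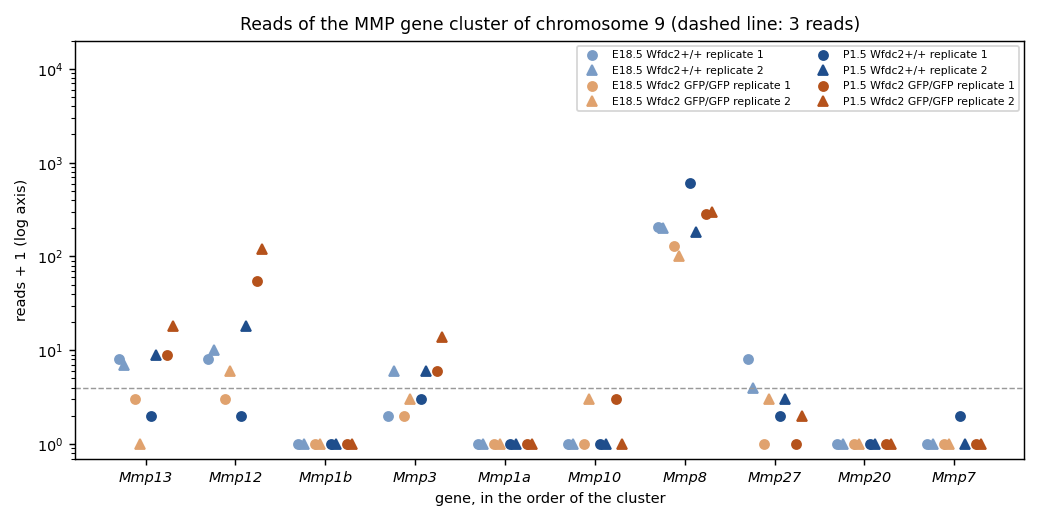
Reads plus 1 (log axis) of the 10 genes of the chromosome 9 cluster, in their order, in each of the 8 libraries, with a dashed line at 3 reads. Mmp8 has 100 to 609 reads in every library, Mmp12 has 54 and 119 reads in P1.5 Wfdc2 GFP/GFP, and the points of the 6 genes with low reads lie at or under 7 reads.

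The membrane-type MMPs are anchored at the cell surface, where Mmp14 cuts collagen and activates pro-MMP2. Mmp14 (chr14:54431604-54441258) had 161 and 183 RPM in E18.5 Wfdc2+/+, 186 and 134 in E18.5 Wfdc2 GFP/GFP, 12.9 and 239 in P1.5 Wfdc2+/+, and 53.1 and 57.2 in P1.5 Wfdc2 GFP/GFP. The P1.5 Wfdc2+/+ libraries were again the lowest and the highest of the 8, and the P1.5 Wfdc2 GFP/GFP pair, close together, was under all E18.5 libraries. The genotype difference at P1.5 was −0.01 ± 1.10. Without P1.5 Wfdc2+/+ replicate 1, the P1.5 Wfdc2 GFP/GFP libraries were both under the one that was left, and without replicate 2 both were above it. Mmp15 had 35.6 and 88.0 RPM in P1.5 Wfdc2+/+ and 86.4 and 88.1 RPM in P1.5 Wfdc2 GFP/GFP, against 40.4 to 62.4 RPM at E18.5. Mmp17, which is tethered by a lipid anchor, had 47 and 46 reads in E18.5 Wfdc2+/+, 60 and 72 in E18.5 Wfdc2 GFP/GFP, 17 and 58 in P1.5 Wfdc2+/+, and only 9 and 11 in P1.5 Wfdc2 GFP/GFP. The P1.5 Wfdc2 GFP/GFP libraries (0.389 and 0.376 RPM) were the lowest of the 8. Its genotype difference was −2.00 ± 0.67 at P1.5 (limma adjusted p = 0.357) and 0.49 ± 0.67 at E18.5, and the interaction −2.49 ± 0.95 (limma adjusted p = 0.431). Mmp16 (24 to 147 reads), Mmp24 (1 to 18) and Mmp25 (8 to 28) were not in the main test, and no comparison of theirs passed in the fit without a filter.

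Of the other MMPs, Mmp23, which has a cysteine-rich domain in place of the usual hemopexin domain, had 357 and 426 reads in E18.5 Wfdc2+/+, 380 and 552 in E18.5 Wfdc2 GFP/GFP, 607 and 482 in P1.5 Wfdc2+/+, and 751 and 881 in P1.5 Wfdc2 GFP/GFP. In RPM the P1.5 libraries (24.8 to 32.4) were all above the E18.5 libraries (10.2 to 18.9). The log2 difference between stages was 1.14 ± 0.36 in Wfdc2+/+ and 1.17 ± 0.36 in Wfdc2 GFP/GFP (limma adjusted p = 0.312 and 0.0744). Mmp19 had 16.6 and 18.6 RPM in E18.5 Wfdc2+/+, 24.5 and 21.0 in E18.5 Wfdc2 GFP/GFP, 37.9 and 17.9 in P1.5 Wfdc2+/+, and 34.9 and 48.5 in P1.5 Wfdc2 GFP/GFP. Mmp28, epilysin, had 172 to 222 reads at E18.5, 33 and 129 in P1.5 Wfdc2+/+, and 50 and 84 in P1.5 Wfdc2 GFP/GFP. Mmp11, stromelysin 3, which leaves the cell in active form, had 34.2 to 64.3 RPM at E18.5, 28.6 and 119 in P1.5 Wfdc2+/+, and 52.0 and 51.8 in P1.5 Wfdc2 GFP/GFP. Except for Mmp23, whose P1.5 libraries differed by 1.13-fold, the P1.5 Wfdc2+/+ libraries of these genes differed by more than 2-fold.

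Of the ADAMTS genes, 7 encode proteases of proteoglycans, and 6 were tested. Adamts1, a versican- and aggrecan-cutting member (chr16:85793827-85803113), had 173 and 164 RPM in E18.5 Wfdc2+/+, 190 and 148 in E18.5 Wfdc2 GFP/GFP, 98.3 and 110 in P1.5 Wfdc2+/+, and 50.5 and 65.3 in P1.5 Wfdc2 GFP/GFP. The E18.5 genotypes overlapped, both P1.5 groups were under them, and P1.5 Wfdc2 GFP/GFP was the lowest pair. In Wfdc2 GFP/GFP, Adamts1 fell 2.92-fold between stages (log2 fold change −1.55 ± 0.29, limma adjusted p = 0.0424). It was 1.62-fold lower at P1.5 in Wfdc2+/+ (−0.70 ± 0.29, limma adjusted p = 0.419). The genotype difference at P1.5 was −0.85 ± 0.29 (limma adjusted p = 0.358). The fall in Wfdc2 GFP/GFP was −0.87 under median centring (limma adjusted p = 0.0944), and its limma adjusted p ran from 0.0146 to 0.218 over the alternatives. The fall also missed the threshold without a filter, with a prior without a trend and with voom on the recovered reads. With the replicate number as 1 block over all libraries it missed it too. In P1.5 Wfdc2+/+, where most of the family differed more than 2-fold between replicates, those of Adamts1 and of Timp1 differed by 1.11-fold.

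Adamts9 had 143 and 124 RPM in E18.5 Wfdc2+/+, 267 and 109 in E18.5 Wfdc2 GFP/GFP, 56.2 and 93.5 in P1.5 Wfdc2+/+, and 33.8 and 46.0 in P1.5 Wfdc2 GFP/GFP. All P1.5 libraries were under all E18.5 libraries, and the log2 difference between stages was −2.11 ± 0.51 in Wfdc2 GFP/GFP (limma adjusted p = 0.0543) and −0.88 ± 0.51 in Wfdc2+/+. The former was −2.76 without E18.5 replicate 2, when it passed, and −1.47 without E18.5 replicate 1, when it did not. The aggrecanases Adamts4 and Adamts5 had few reads: Adamts4 had 57 to 182 at E18.5, 7 and 63 in P1.5 Wfdc2+/+, and 16 and 21 in P1.5 Wfdc2 GFP/GFP. Adamts5 had 105 to 529 reads at E18.5, 128 and 465 in P1.5 Wfdc2+/+, and 115 and 215 in P1.5 Wfdc2 GFP/GFP. Their log2 differences between stages in Wfdc2 GFP/GFP were −2.13 ± 0.99 and −0.24 ± 0.82. Adamts8 had 6.77 to 12.4 RPM at E18.5, 3.55 and 15.9 in P1.5 Wfdc2+/+, and 12.2 and 18.9 in P1.5 Wfdc2 GFP/GFP. Adamts15 had 22.7 to 40.3 RPM at E18.5, 102 and 23.0 in P1.5 Wfdc2+/+, and 52.7 and 65.8 in P1.5 Wfdc2 GFP/GFP. Adamts20 had 7 to 124 reads a library and was not in the main test.

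The procollagen N-proteinases remove the amino-terminal propeptide of fibrillar collagens. Adamts2 had 99.1 and 107 RPM in E18.5 Wfdc2+/+, 91.4 and 88.5 in E18.5 Wfdc2 GFP/GFP, 41.0 and 135 in P1.5 Wfdc2+/+, and 68.8 and 91.2 in P1.5 Wfdc2 GFP/GFP. Adamts14 had 10.4 and 12.1 RPM in E18.5 Wfdc2+/+, 15.7 and 28.4 in E18.5 Wfdc2 GFP/GFP, 21.7 and 12.5 in P1.5 Wfdc2+/+, and 10.3 and 11.3 in P1.5 Wfdc2 GFP/GFP. The Wfdc2 GFP/GFP libraries were thus the higher pair before birth and the lower pair after it, with log2 differences of 0.91 ± 0.48 and −0.62 ± 0.48 (limma adjusted p = 0.999754 and 0.693). Adamts3 had 63 to 622 reads, the most in E18.5 Wfdc2 GFP/GFP replicate 1.

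Adamts10, which binds fibrillin microfibrils, had the lowest unadjusted p of the 27 genes in the interaction. It lies at chr17:33524204-33553782 and had 119 and 126 RPM in E18.5 Wfdc2+/+, 261 and 301 in E18.5 Wfdc2 GFP/GFP, 229 and 283 in P1.5 Wfdc2+/+, and 157 and 148 in P1.5 Wfdc2 GFP/GFP. Wfdc2 GFP/GFP was 2.29-fold higher at E18.5 (log2 difference 1.20 ± 0.27, unadjusted p = 0.00249, limma adjusted p = 0.470) and 1.67-fold lower at P1.5 (−0.74 ± 0.27, limma adjusted p = 0.396). Accordingly the difference between stages was 1.06 ± 0.27 in Wfdc2+/+ and −0.88 ± 0.27 in Wfdc2 GFP/GFP (limma adjusted p = 0.222 and 0.0761). The interaction was −1.93 ± 0.39 (unadjusted p = 0.00112, limma adjusted p = 0.198). In each of the 4 groups the replicates of Adamts10 differed by at most 1.23-fold.

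Adamts17, a relative of Adamts10, had 114 to 131 RPM in the E18.5 libraries, 28.7 and 92.0 in P1.5 Wfdc2+/+, and 31.5 and 29.5 in P1.5 Wfdc2 GFP/GFP. All P1.5 libraries were under all E18.5 libraries, with log2 differences of −1.30 ± 0.56 in Wfdc2+/+ and −2.01 ± 0.56 in Wfdc2 GFP/GFP (limma adjusted p = 0.422 and 0.0659). Adamts7 and Adamts12 both cut cartilage oligomeric matrix protein. Adamts7 had 439 to 809 reads at E18.5, 50 and 497 in P1.5 Wfdc2+/+, and 154 and 190 in P1.5 Wfdc2 GFP/GFP. Adamts12 had 1009 and 547 reads in E18.5 Wfdc2+/+, 2122 and 196 in E18.5 Wfdc2 GFP/GFP, 67 and 244 in P1.5 Wfdc2+/+, and 78 and 22 in P1.5 Wfdc2 GFP/GFP. Every P1.5 library was lower than its E18.5 group, but its replicates differed by 8.51-fold in E18.5 Wfdc2 GFP/GFP and by 4.48-fold in P1.5 Wfdc2 GFP/GFP, and the log2 difference between stages in Wfdc2 GFP/GFP was −3.62 ± 1.19 (limma adjusted p = 0.0826), and −2.07 without E18.5 replicate 1. Adamts13, which cuts von Willebrand factor in blood, went the other way: 18.3 and 12.5 RPM in E18.5 Wfdc2+/+, 13.4 and 31.5 in E18.5 Wfdc2 GFP/GFP, 134 and 19.7 in P1.5 Wfdc2+/+, and 88.2 and 52.3 in P1.5 Wfdc2 GFP/GFP. Its log2 difference between stages was 1.77 ± 0.86 and 1.73 ± 0.86 in the genotypes, and in Wfdc2+/+ it was 3.15 without P1.5 replicate 2, when it passed, and 0.38 without P1.5 replicate 1. The remaining ADAMTS genes were under the level tested, with 75 to 597 reads at E18.5 and 22 to 72 at P1.5 for Adamts6, 142 to 850 reads for Adamts19, 0 to 401 for Adamts18 and 0 to 15 for Adamts16. The highest count of each of these genes was in E18.5 Wfdc2 GFP/GFP replicate 1, and no comparison of theirs passed in the fit without a filter.

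Genes around the family were counted from lists. Of 6 ADAMTS-like genes, which encode relatives without the protease domain, 4 were tested. Each had a lower mean without WFDC2 after birth, against 61.2% of all genes. An unadjusted p under 0.05 by limma was reached by 2 of them, against 10.9% of all genes. These were Papln (−1.98 ± 0.67) and Adamtsl4 (−1.17 ± 0.45 in log2), and 0 passed the adjusted threshold. Of 9 ADAM proteases, the membrane-bound sheddases, 0 passed the adjusted threshold in any comparison. Adam33 had the largest difference at P1.5 (−1.64 ± 0.37, limma adjusted p = 0.262), and Adam10 had 75.1 and 128 RPM in P1.5 Wfdc2+/+ and 97.7 and 105 in P1.5 Wfdc2 GFP/GFP, a log2 difference of 0.05 ± 0.42. Adam15 had 0.92 (limma adjusted p = 0.428). Of 20 activators and inhibitors from outside the family, 17 were tested and 1 passed, in the stage comparison of Wfdc2 GFP/GFP only: Lcn2, whose product binds MMP9 and shields it from degradation. Lcn2 had 50.3 and 61.7 RPM in E18.5 Wfdc2+/+, 5.08 and 33.3 in E18.5 Wfdc2 GFP/GFP, 127 and 70.7 in P1.5 Wfdc2+/+, and 494 and 832 in P1.5 Wfdc2 GFP/GFP, so that P1.5 Wfdc2 GFP/GFP was above all others. It rose by 5.62 ± 0.79 in log2 between stages in Wfdc2 GFP/GFP (limma adjusted p = 0.0237), and by 4.27 without E18.5 replicate 1, when the limma adjusted p was 0.130. The genotype difference at P1.5 was 2.76 ± 0.79 (limma adjusted p = 0.324). Reck, a membrane-anchored MMP inhibitor, had 54.2 to 75.0 RPM at E18.5, 12.2 and 45.1 in P1.5 Wfdc2+/+, and 11.1 and 15.9 in P1.5 Wfdc2 GFP/GFP. Prss35, a serine protease, had 2.99 and 80.8 RPM in P1.5 Wfdc2+/+, outside the 15.8 and 22.0 of P1.5 Wfdc2 GFP/GFP on both sides. Of 16 matrix substrates, 14 were tested and 0 passed in any comparison. Their summed level was 4534 and 14191 RPM in P1.5 Wfdc2+/+, 5537 and 6837 RPM in P1.5 Wfdc2 GFP/GFP and 12771 to 16762 RPM at E18.5, so that P1.5 Wfdc2+/+ replicate 2 lay within the E18.5 range and replicate 1 under both Wfdc2 GFP/GFP libraries. Between genotypes at P1.5, 12 of the 14 had a lower mean in Wfdc2 GFP/GFP (Col3a1, a fibrillar collagen, −0.92 in log2), against 61.2% of all genes. These became 14 of the 14 without P1.5 Wfdc2+/+ replicate 1 and 2 of the 14 without replicate 2. At P1.5 13 of the 14 had a lower mean than at E18.5 in each genotype, with a median log2 difference of −0.95 in Wfdc2+/+ and −1.45 in Wfdc2 GFP/GFP, against 57.1% and 63.9% of all genes. In Wfdc2+/+ this became 7 of the 14 without P1.5 replicate 1.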

How the data were processed

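Total lung RNA was made into strand-specific libraries (NEBNext Ultra Directional) and sequenced on an Illumina HiSeq 2500 or GAIIx. Which library ran on which is not given in the sources used here. Per the labels and the study's methods, the authors used CASAVA 1.8, trimmed reads with Trim Galore 0.4.0, mapped them to mm10 with TopHat 2.1.1 and quantified genes with SeqMonk. The deposited file holds 1 column of log2 RPKM for each library. The values fit a length that includes introns and 0.9 read in place of 0. Between 99.863% and 99.962% of values gave whole reads within 0.02, so reads and RPM were computed from them. The 15627 genes whose mean reached 0.05 RPKM entered limma 3.58.1 (R 4.3.3), run on the deposited log2 values, with 4 group means, 4 residual degrees of freedom, a trend in the prior, two-sided tests and Benjamini-Hochberg adjustment at 0.05. An exact permutation test of 2 libraries against 2 cannot reach that threshold, so none was run. Duplicate libraries are described as separate animals. SE is the standard error of the fit, and limits of detection cover counting error only. The fits were also run on simulated counts with large changes and with replicates drawn around 1 shared mean. Such replicates do not differ as the P1.5 Wfdc2+/+ libraries do, so that run does not measure power or error here. The members and lists were chosen with earlier results of these data known. Named in each comparison are up to 6 members that increased most and 6 that decreased most whose groups do not overlap (interaction: by unadjusted p), with the TIMPs, Mmp2, Mmp8, Mmp9, Mmp12 and Mmp14, and from each list up to 4 genes, Adam10 and Prss35; Reck, Marco and other genes given by range were named besides. Alternatives were pseudocounts of 0.1 and 1 RPKM, no filter or 0.5 RPKM, quantile normalization, centring on the median, only the 4 libraries compared, the replicate number as a block, other priors, voom on the recovered reads, a threshold of 0.1 and each library left out; a filter of 10 reads in 2 libraries and a fit without the 2 libraries that stand apart were added after seeing the data. Reads, lists and figures were computed in Python 3.11.15 (pandas 2.3.3, numpy 2.4.6, scipy 1.17.1, matplotlib 3.10.9). No column was left without a sample.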

Additional observations from a re-analysis of the deposited data

Results flagged for a closer look

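In 4 of the 27 genes tested, and in Mmp12, which was outside the test, every Wfdc2 GFP/GFP library lay on one side of the Wfdc2+/+ libraries at E18.5 and on the other side at P1.5. Of all 15627 genes tested 9.92% did so, a share to read the 4 genes against. The genotype difference at P1.5 minus that at E18.5, in log2, was −1.93 for Adamts10, −1.53 for Adamts14 and −2.49 for Mmp17, which were higher before birth and lower after it in Wfdc2 GFP/GFP. It was 2.34 for Mmp9 and 5.28 for Mmp12, which were lower before and higher after. The interaction had limma adjusted p of 0.198 for Adamts10, 0.502 for Adamts14, 0.431 for Mmp17 and 0.300 for Mmp9, so that none passed. For Mmp12 the limma adjusted p of the interaction was 0.426 in the fit without a filter. Before birth Mmp12 rested on 2 to 9 reads a library. Under median centring 3 of the 27 genes lay on opposite sides at the 2 stages, Adamts10, Mmp9 and Timp2, against 11.4% of all genes. Timp2 did so on that scale only, and Mmp12 did so on both. The Mmp17 groups overlapped at E18.5 after centring and the Adamts14 groups at P1.5.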

How the results depend on the processing

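Over 50 results, each the difference of 1 gene in 1 comparison, and 752 alternatives, 708 kept their direction and their side of the threshold. Another 23 moved past it, 14 no longer passed, 6 values without a test (all of Mmp12) moved and 1 reversed. Only 3 of the 50 results passed in the main test: Mmp9, Timp1 and Adamts1 between stages in Wfdc2 GFP/GFP. All 14 losses were among these 3, and the 708 are mostly results that passed in neither setting. The reversal was Mmp2 at E18.5 under median centring, at −0.0085 in log2 against 0.20. Counts of genes that passed, and the settings added after seeing the data, were not included. Most of these results were chosen because their groups do not overlap, so that leaving out 1 library could not reverse them. Outside them, the Mmp14 difference between genotypes at P1.5 ran from −2.11 to 2.09 in log2 with 1 library left out. At P1.5, 14 genes passed between genotypes without both libraries that stand apart, against 0 (2667 and 2 of all 15627 genes). With 1 library left out, between 0 and 8 genes passed between stages in Wfdc2+/+, and between 0 and 7 in Wfdc2 GFP/GFP, against 3. In the latter, where 711 of all genes passed, 12 passed with its 4 libraries alone (3036 of all genes), 13 without both libraries that stand apart (2778) and 11 at an adjusted p under 0.1 (4009). With the 10-read filter 5 passed, and 6 with voom and that filter (1532 and 2611 of 16540 genes). Both counts include Mmp12, which reached 10 reads in 2 libraries through the P1.5 Wfdc2 GFP/GFP pair, so that they lend its difference no support. The cause was not tested.

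The replicate number is not stated to mark a litter. In every group it separates the library with Xist reads from the one with Ddx3y reads, so a block on it is also a block on that difference. Same-numbered libraries deviated with r = 0.23 at E18.5 and r = 0.21 at P1.5 over 15627 genes. With it as a block within stage, 10 genes passed between stages in Wfdc2 GFP/GFP (4160 of all genes), and with 1 block over all libraries 2 did, Mmp9 and Timp1 (125 of all genes). In the other comparisons the block left the count at 0. With pseudocounts, which flatten low genes, the Mmp12 difference at P1.5 shrank to 0.94 (0.1 RPKM) and 0.15 (1 RPKM). Fits with a library left out leave 1 library in a group and assume that it varies like the others. That group then holds only a library with Xist reads or only one with Ddx3y reads, while the group compared with it holds both. Depth limits Mmp12, Mmp13, Mmp3 and the 7 genes under 10 reads.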
